A study of Mus musculus with 2 samples.

Results

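The IFI200 family, also called the PYHIN family, is a group of interferon-inducible genes that lie next to each other on mouse chromosome 1. Most of its proteins join an amino-terminal pyrin domain, which binds other pyrin domains, to 1 or more HIN-200 domains, which bind DNA. AIM2 is the member best known as a sensor of DNA in the cytosol: bound to double-stranded DNA, it gathers the adaptor ASC and caspase-1 into an inflammasome that matures IL-1β and IL-18 and opens gasdermin D pores. Other members are mainly nuclear and have been linked to type I interferon production through STING, to transcription and to cell growth. The family was taken as 9 listed symbols, Ifi203, Ifi204, Ifi205, Ifi207, Ifi209, Ifi211, Mnda, Mndal and Aim2, and 8 of them matched a gene among the 55536 genes of the tables. Mnda matched none. The RefSeq gene table lists Mnda as a synonym of Ifi211, so under that naming its locus is already counted once. It also lists Mndal as a synonym of Ifi203, but the deposited tables keep Mndal and Ifi203 as separate genes.

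The RNA was polyadenylated RNA of bone marrow-derived macrophages, cells grown out of the marrow of C57BL/6J mice, sequenced in 2 libraries that the labels number as biological replicates 1 and 2. Both belong to the only group, cells given 100 ng/ml of a stimulus for 30 min, which the labels name lipid A (the part of lipopolysaccharide that TLR4 recognises) in one field and lipoprotein A in another. There were no untreated cells, so the values below are levels in stimulated macrophages and differences between 2 libraries, and no effect of the stimulus can be given. Both libraries cite the same donor record and different biosample records, so the spread between them may be technical. The tables hold 37784941 estimated reads (expected counts) for replicate 1 and 51904470 for replicate 2. Levels are in TPM, which are scaled to library size and transcript length and can be compared between genes. Fewer expressing cells and less RNA per cell cannot be told apart in these bulk samples.

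In short DNA windows at their starts, 5 of the 7 members with such a window held the core of an interferon-stimulated response element, the sequence that interferon-activated factors bind. RefSeq promoter windows (build GRCm38.p6, 250 bases before to 50 after a start) were matched for 7 of the 8 members, all except Ifi204. The core searched was GAAANNGAAA on both strands, found in 3.44% of all 32851 windows. The stretches around it are shown because they carry what the members share beyond their position. They are written 5′ to 3′ on the gene's own strand, with the core, and for Ifi209 the closest stretch to it, in capitals:
Ifi203: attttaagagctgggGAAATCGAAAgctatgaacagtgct
Mndal: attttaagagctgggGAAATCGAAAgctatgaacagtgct
Ifi207: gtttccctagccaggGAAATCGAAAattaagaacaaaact
Ifi211: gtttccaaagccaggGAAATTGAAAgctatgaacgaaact
Ifi205: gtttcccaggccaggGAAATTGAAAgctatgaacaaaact
Ifi209: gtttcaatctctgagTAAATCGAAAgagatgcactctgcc

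All 6 stretches lie on chromosome 1, at chr1:173942503-173942542 (Ifi203), chr1:173880199-173880238 (Mndal), chr1:173741826-173741865 (Ifi207), chr1:173913059-173913098 (Ifi211) and chr1:174031865-174031904 (Ifi205) on the minus strand, and at chr1:173630765-173630804 (Ifi209) on the plus strand. The 40 bases of Ifi203 and Mndal differed at 0 positions, although the places lie apart on the chromosome. Those of Ifi205 and Ifi211 differed from each other at 3 positions, and those of Ifi203 and Ifi207 at 13. Against the core of Ifi203, counted from 1 at its 5′ end, the cores of Mndal and Ifi207 were the same and those of Ifi205 and Ifi211 carried C6T. The core began at -35 from the RefSeq start in Ifi203, -36 in Mndal, -37 in Ifi211, -41 in Ifi207 and -134 in Ifi205. The windows of Ifi205 and of a second Mndal start held a further core on the other strand. The window of a second Ifi203 start held none. The window of Ifi209 had no core, and its closest stretch, at -79, differed by G1T. A core was also absent from the Aim2 window, but that window does not cover the start of the main Aim2 model: Aim2-204, with 63.3% and 62.7% of the gene's counts, starts 34750 bases downstream of it. The window shown for Mndal does not cover the start of its main model either. Mndal-201, with 77.4% and 74.1% of the gene's counts, starts 1 base from the RefSeq start of Ifi203. Neither a gamma-activated site (TTCNNNGAA, in 8.3% of all windows) nor the NF-kB consensus (in 4.51%) was found in a member's window. A match of letters is a description and shows no binding, and the absence of one concerns only these windows.

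All 8 matched members were present, each at more than 1 TPM in both libraries. For comparison, 10658 of 55536 genes (19.2%) and 9983 of 22028 protein-coding genes (45.3%) reached 1 TPM in both. Together the members summed to 772.5 TPM in replicate 1 and 1433 TPM in replicate 2, a mean of 1103 ± 467 TPM (SD, n = 2), or 0.0773% and 0.143% of all TPM. The median member stood at 55.95 and 186.3 TPM, against 14.2 and 15.96 TPM for the median of the 11106 genes that averaged 1 TPM or more. Ifi204, Ifi207 and Ifi211 carried most of the family's RNA, 76.4% of its TPM in replicate 1 and 62.7% in replicate 2. The members spanned a 17.9-fold range of levels in replicate 1 and a 13.6-fold range in replicate 2.

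**Figure D1:**
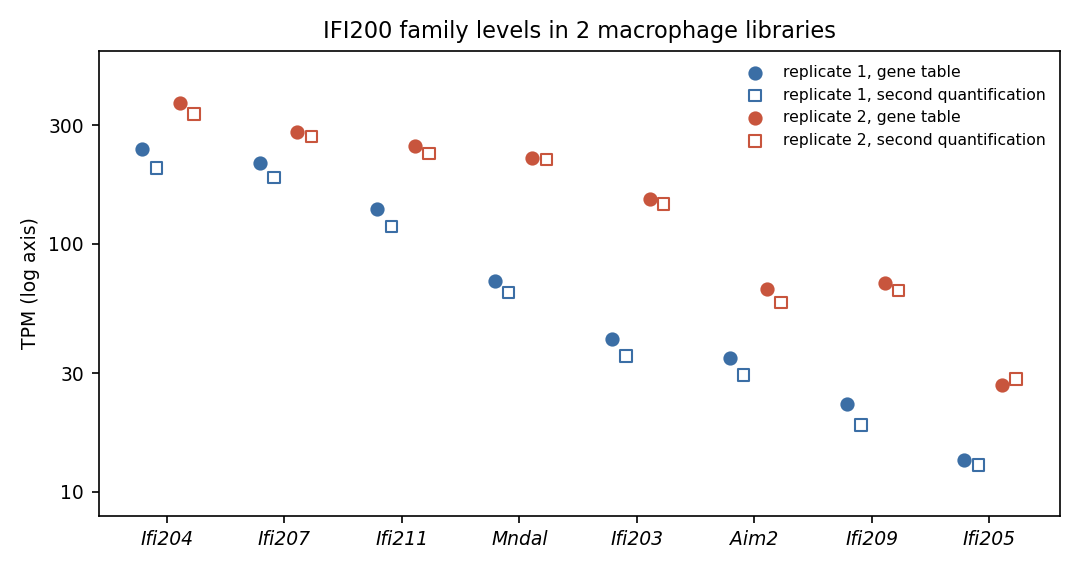
TPM (log axis) of the 8 matched members in replicate 1 (blue) and replicate 2 (red), with filled circles for the gene table and open squares for the second quantification of the same reads. Each member lies higher in replicate 2, from 27.0 TPM for Ifi205 to 368 TPM for Ifi204, and squares lie close to their circles.

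Aim2, the inflammasome sensor (ENSMUSG00000037860.15, chromosome 1, 173350879 to 173466040, plus strand), was not among the most abundant members. It had 928 expected counts (34.7 TPM) in replicate 1 and 2289 (65.4 TPM) in replicate 2, a mean of 50.1 ± 21.7 TPM (SD, n = 2). That placed it above 94.4% and 96.6% of all genes but at only 4.49% and 4.57% of the family's TPM. Without a short non-coding model of few reads, Aim2-206, the mean was 32.4 TPM.

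Ifi204 encodes p204, often set beside human IFI16 as a DNA sensor upstream of STING. It was the most abundant member in both libraries (ENSMUSG00000073489.6, chromosome 1, 173747293 to 173766943, minus strand). Its level was 240 TPM (12118 counts) in replicate 1 and 368 TPM (25860 counts) in replicate 2, a mean of 304 ± 90.0 TPM (SD, n = 2). The protein-coding genes outside the family nearest to it in log2(TPM + 1) over the 2 libraries were Tapbp, at 232 and 359 TPM, Ndufa1 at 249.84 and 348 TPM, and Dnmt3a at 256 and 357 TPM. With only 2 libraries, such nearness describes level and little else.

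Ifi205, whose product has been linked to expression of the ASC adaptor in macrophages, was the least abundant member (ENSMUSG00000054203.7, chromosome 1, 174011998 to 174031810, minus strand). It stood at 13.4 TPM (493 counts) in replicate 1 and 27.0 TPM (1405 counts) in replicate 2, a mean of 20.2 ± 9.64 TPM (SD, n = 2). Its count was also the least certain. The deposited posterior SD, which expresses how firmly reads were assigned to a gene, was 2.59% and 1.46% of the count for Ifi205 and at most 0.529% for any other member.

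The remaining members encode HIN-200 proteins of less settled function. Ifi207 (ENSMUSG00000073490.11, chromosome 1, 173723427 to 173741747, minus strand) was at 212 TPM (16709 counts) and 283 TPM (31459 counts), a mean of 247.5 ± 50.3 TPM (SD, n = 2). Ifi211 (ENSMUSG00000026536.9, chromosome 1, 173896345 to 173913046, minus strand) was at 138 TPM (5236 counts) and 247 TPM (13124 counts), a mean of 192.6 ± 77.5 TPM (SD, n = 2). Ifi207 had more counts than Ifi204 in both libraries but a lower TPM, since its transcript is longer. Mndal (ENSMUSG00000090272.8, chromosome 1, 173849126 to 173942491, minus strand) was at 70.6 TPM (2395 counts) and 221 TPM (9890 counts), a mean of 145.7 ± 106 TPM (SD, n = 2). Ifi203 (ENSMUSG00000039997.16, chromosome 1, 173920407 to 173942672, minus strand) was at 41.3 TPM (3115 counts) and 152 TPM (15605 counts), a mean of 96.6 ± 78.1 TPM (SD, n = 2). Ifi209 (ENSMUSG00000043263.13, chromosome 1, 173630917 to 173647928, plus strand) was at 22.5 TPM (1786 counts) and 69.5 TPM (7744 counts), a mean of 46.0 ± 33.25 TPM (SD, n = 2). For Mndal, Ifi203 and Ifi209 the libraries thus lay further apart than for Ifi204 and Ifi207.

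From the highest mean down, the order was Ifi204, Ifi207, Ifi211, Mndal, Ifi203, Aim2, Ifi209 and Ifi205. It was the same within each library except that Aim2 stood above Ifi209 in replicate 1 and just below it in replicate 2, where the ratio of Aim2 to Ifi209 was 0.941. For every neighbouring pair the ranges of the 2 libraries overlapped. Every member was higher in replicate 2, so this overlap includes the shift between libraries and does not test the order within a library. With 2 libraries no difference between neighbours was tested. Leaving Aim2 and Ifi209 aside, the steps within a library ranged from 1.12-fold to 2.57-fold. These were Ifi211 over Mndal and Ifi209 over Ifi205, both in replicate 2. Without the short model Aim2-206, described with the transcripts, Aim2 averaged 32.4 TPM and stood below Ifi209 in the mean.

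The members spread over 680.9 kb of chromosome 1 that holds 22 annotated genes, 14 of them protein-coding and 6 pseudogenes. Each other PYHIN gene of this stretch had a lower mean than every member, although in replicate 2 Ifi213 was above Ifi205. Ifi213 was at 7.70 and 29.1 TPM, Ifi206 at 10.3 and 26.2 TPM and Ifi208 at 3.35 and 14.4 TPM. The pseudogene Ifi203-ps was at 0.51 and 3.64 TPM (29 and 293 counts), and Ifi214 at 0.19 and 0.56 TPM (6 and 33 counts). Ifi202b, whose product lacks a pyrin domain, counteracts AIM2 and is known to be scarce in the C57BL/6 strain, was all but missing, with 1 and 2 counts. The symbols Pyhin1, Pydc3, Pydc4 and Pydc5 were matched to no gene.

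**Figure D2:**
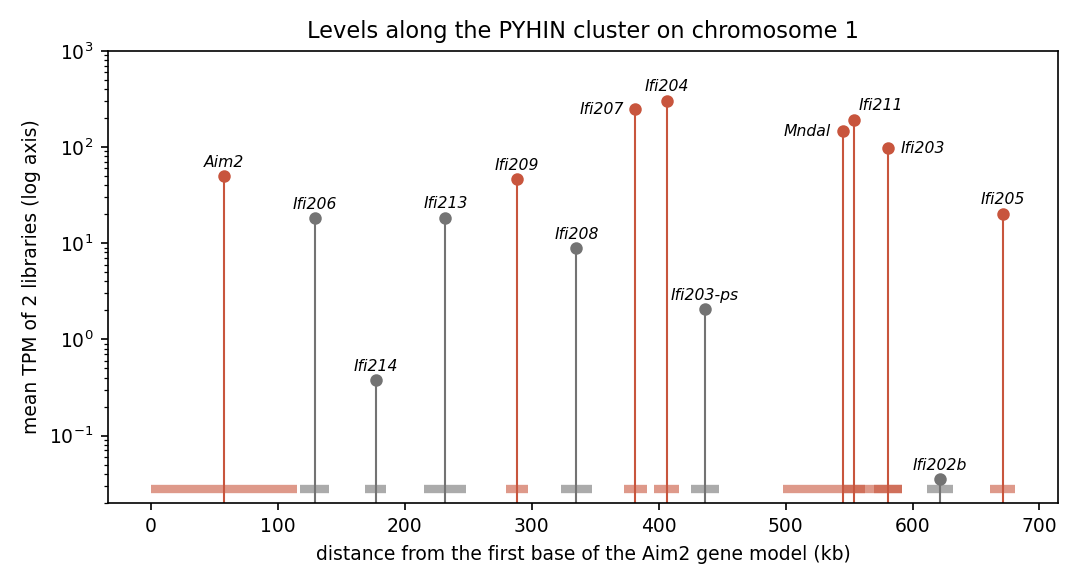
Mean TPM of both libraries (log axis) against distance in kb from the first base of the Aim2 gene model, for members (red) and other PYHIN genes (grey), with gene extents as bars at the foot. Ifi207 and Ifi204 stand side by side at 247.5 and 304 TPM, and Mndal, Ifi211 and Ifi203 share overlapping ground at 96.6 to 192.6 TPM.

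The members were higher in replicate 2, and unequally so. After scaling of library sizes by TMM, the ratio of replicate 2 to replicate 1 was 3.36 for Ifi203 (95% exact interval 3.24 to 3.50), 2.91 for Ifi209 (2.76 to 3.07) and 2.77 for Mndal (2.65 to 2.90). It was 1.91 for Ifi205 (1.73 to 2.12), 1.68 for Ifi211 (1.63 to 1.74) and 1.66 for Aim2 (1.53 to 1.79). The most abundant members differed least, Ifi204 by 1.43 (1.40 to 1.46) and Ifi207 by 1.26 (1.24 to 1.29). These intervals cover counting error only. An exact two-sided binomial test of each gene's counts, with Benjamini-Hochberg adjustment over all 12266 genes tested, called all 8 members higher in replicate 2, with the largest adjusted p, 2.35e-37, for Ifi205. The test compares 2 libraries, with no replicate behind a call, and at this depth it called 7789 genes (63.5%) different. It called 32.2% of all genes higher in replicate 2. Beyond 2-fold higher were 3 of 8 members, Ifi203, Ifi209 and Mndal, against 4.89% of all genes. The median log2 ratio was 0.84 over the members and 0.001 over all genes tested. The share of tested genes with a larger log2 ratio was 1.07% for Ifi203, 1.70% for Ifi209, 1.96% for Mndal, 5.60% for Ifi205, 8.74% for Ifi211, 9.17% for Aim2, 15.4% for Ifi204 and 23.4% for Ifi207. Scaled by total counts instead, the median of all genes shifted by 0.118 on the log2 scale and the calls by direction from 3945 higher and 3844 lower to 5259 higher and 2486 lower. The members' log2 ratios then ran from 0.46 to 1.87, all 8 still called higher.

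**Figure D3:**
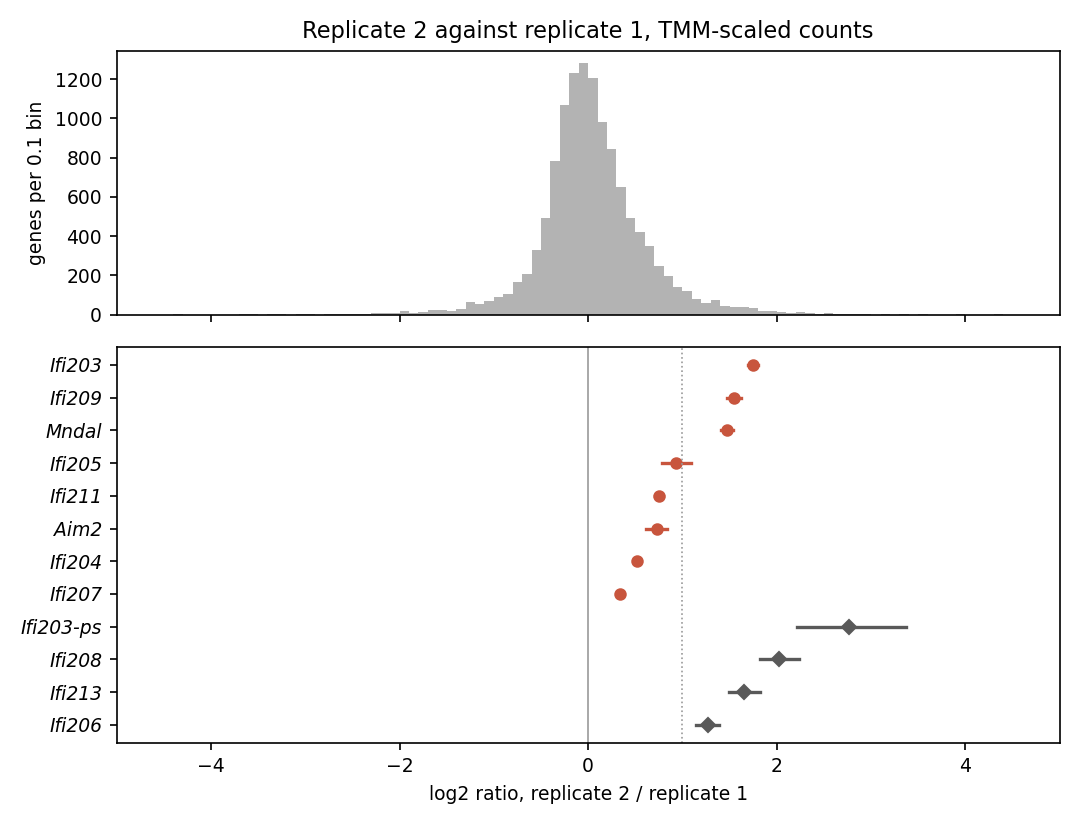
Log2 ratio of replicate 2 to replicate 1 after TMM scaling: above, the number of genes per bin of 0.1 among the 12266 tested; below, members (red circles) and other PYHIN genes (grey diamonds) with 95% exact intervals for counting error only, a solid line at no difference and a dotted line at a 2-fold difference. Every gene shown lies to the right of 0, from 0.34 for Ifi207 to 2.76 for the pseudogene Ifi203-ps.

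With the unequal differences the makeup of the family shifted. Mndal made up 9.14% of the family's TPM in replicate 1 and 15.4% in replicate 2, and Ifi203 5.35% and 10.6%. Ifi204 made up 31.1% and 25.7%, and Ifi207 27.4% and 19.8%. Among the lower neighbours in the cluster, all 4 with enough counts to be tested were called higher in replicate 2 and beyond 2-fold. Their ratios were 2.41 for Ifi206, 3.15 for Ifi213, 4.07 for Ifi208 and 6.78 for Ifi203-ps. Over all genes tested, 32.2% were called higher and 4.89% higher and beyond 2-fold.

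Other values moved between the same libraries. Ribosomal RNA genes held 10.9% of TPM in replicate 1 and 5.17% in replicate 2. Rescaled without them, the family averaged 1189 TPM. Of the neutrophil markers, S100a8 was lower in replicate 2, at 124 TPM in replicate 1 and 18.1 TPM in replicate 2, as was S100a9 at 183 and 37.1 TPM, while Ly6g, Mpo, Retnlg and Cxcr2 were below 1 TPM in both; the 6 markers summed to 308.1 and 55.55 TPM. Macrophage markers were high, 6 of 6 detected, summing to 5674 and 5327 TPM, with Cd68, a lysosomal membrane protein, at 3702 and 3370 TPM. All 4 B cell, all 4 NK cell, all 4 classical dendritic cell and all 4 stromal markers were below 1 TPM in both libraries, with sums of 0.11 and 0.04 TPM (B cell), 0.02 and 0 TPM (NK cell), 1.78 and 0.71 TPM (dendritic) and 0.63 and 0.5 TPM (stromal). Ncr1, Prf1, Gzma and Lum were at 0 in both. Of 4 T cell markers only Cd4 was detected, at 111 and 82.2 TPM, with Cd8a at 0, and those 4 summed to 111.5 and 82.17 TPM. Of the plasmacytoid dendritic cell markers Tcf4 was at 24.5 and 42.4 TPM, Siglech at 1.07 and 0.57 TPM, Ccr9 below 1 TPM and Klk1 at 0, summing to 26.1 and 43.3 TPM. The part of any of these in the members' difference was not tested.

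Genes listed for comparison with the family differed by group. Over all 12266 genes tested, 32.2% were called higher in replicate 2, 4.89% higher and beyond 2-fold, and 63.5% different in either direction. All 22 of 22 other interferon-stimulated genes listed were called higher in replicate 2, 12 of them beyond 2-fold, with a median log2 ratio of 1.15. The most abundant were Bst2 (tetherin, which holds budding virus at the cell surface) at 285 and 513 TPM, Ifit3 at 153 and 390 TPM, Ifit2 at 117 and 372 TPM, and the chemokine gene Cxcl10 at 52.8 and 352 TPM. Interferon receptors and their factors were mixed: 9 of 16 were called higher, 1 of them beyond 2-fold, and 4 lower, with a median log2 ratio of 0.21. Irf1, a factor that binds response elements of this kind, was at 150 and 464 TPM. The lineage factor Spi1 was at 244 and 294 TPM and Irf8 at 178 and 166 TPM, and the feedback inhibitor Socs1 was below 1 TPM in both. The interferon gene Ifnb1 had 1 and 59 counts and Ifna4 had 0 in both.

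Among 18 genes of DNA sensing through cGAS and STING, 16 were tested. Of these, 11 were called higher in replicate 2, 2 of them beyond 2-fold, and 3 lower, with a median log2 ratio of 0.35. The shares over all genes tested were 32.2% called higher and 4.89% higher and beyond 2-fold. Samhd1, which depletes deoxynucleotides, was at 363 and 484 TPM, Dnase2a, the lysosomal DNase, at 187 and 145 TPM, Irf7 at 112 and 207 TPM and Trim30a at 70.65 and 121 TPM. The 13 genes listed with the AIM2 inflammasome also include sensors of other inflammasomes, such as Nlrp3 and Nlrc4. This list differed in both directions: 6 were called higher in replicate 2, 3 of them beyond 2-fold, and 2 lower. Those beyond 2-fold were Il1b, Casp4 and Nlrp1b. The median log2 ratio of the list was -0.002. Il1b, the cytokine precursor, was at 146 and 735 TPM, Ninj1, which ruptures the membrane of dying cells, at 306 and 321 TPM, the protease gene Casp1 at 69.3 and 104 TPM and Casp8 at 64.6 and 68.3 TPM. Pycard, which encodes the adaptor ASC and was picked with its level in view, stood at 44.7 and 32.0 TPM, with a TMM-scaled ratio of 0.886 (95% exact interval 0.823 to 0.954), while Aim2 differed the other way.

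Some members are near copies of each other. Between leading coding transcripts, the coding sequence of Ifi211 was 96.4% identical to that of Ifi204 and 94.7% to that of Ifi205 over the aligned bases, and Ifi204 and Ifi205 were 91.5% identical. Aim2 was 61.2% to 69.5% identical to every other member, and Ifi203 was 63.9% identical to Ifi205 and 80.5% to Ifi204. Coding lengths ran from 1062 bases in Aim2 to 2934 in Ifi207, with 1857 in Ifi204, 1614 in Mndal, 1275 in Ifi211, 1260 in Ifi209, 1227 in Ifi203 and 1212 in Ifi205. Of the stretches of 31 bases in the leading transcript, 78.9% occurred in another annotated gene for Ifi211, 56.5% for Ifi205, 48.6% for Ifi209, 46.0% for Ifi204 and 42.5% for Mndal. The share was 20.7% for Ifi203, 14.9% for Ifi207 and 8.39% for Aim2. Of the neighbours outside the member list, Ifi208 had 42.1%, Ifi206 36.9% and Ifi213 31.1%, so their ratios carry the same limit. For Ifi203-ps the share was not computed. Ifi203 shared more of its stretches with Ifi203-ps than with any other gene (11.2%), so the ratio of Ifi203-ps carries this limit too. Ifi209 shared most with Ifi214 (48.2%), Ifi205 most with Ifi211 (54.1%). Gene models also overlap: that of Mndal spans Ifi211 and Ifi203, and the start of Aim2 overlaps Cadm3, which had 0 and 1 counts. Mndal, Ifi211 and Ifi203 all lie on the minus strand, so strand could not separate their reads. Aim2 and Cadm3 lie on opposite strands, and it is unknown whether reads were counted by strand. The levels of Ifi211, Ifi205, Ifi209, Ifi204 and Mndal thus depend on how reads from shared stretches were divided between genes. The shares of stretches are not sizes of error in the levels. That error was not measured here apart from the posterior SD given above.

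Despite the shared sequence, both quantifications gave like levels. The second, made from the reads and an index, put the members at 0.851 (replicate 1) and 0.943 (replicate 2) of the first in the median, beside 0.824 and 0.896 for the genes that averaged 1 TPM or more. Measured against that wider median, members lay between 0.99 and 1.17, and Ifi205 was furthest at 1.16 and 1.17. None of the 8 was beyond 1.5-fold from the median in either library, against 7.62% of 11051 genes. In the second quantification Ifi204 stood at 202 and 334 TPM, Ifi207 at 185 and 270.4 TPM and Ifi211 at 117 and 231 TPM. Mndal stood at 63.6 and 219 TPM, Ifi203 at 35.3 and 144 TPM and Aim2 at 29.5 and 58.0 TPM. Ifi209 stood at 18.6 and 64.9 TPM and Ifi205 at 12.8 and 28.4 TPM. The ratio of replicate 2 to replicate 1 in TPM was larger in the second quantification for each member. It was 4.10 against 3.67 for Ifi203 and 1.46 against 1.34 for Ifi207. This was not particular to the members, since the wider median of second over first was also 1.09 times higher in replicate 2. After TMM scaling the members' log2 ratios ran from 0.307 to 1.735 in the second quantification and from 0.338 to 1.749 in the first.

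Most members were read from 1 transcript model. Ifi211-201 is the only model of its gene. Ifi207-201 held 99.6% and 99.8% of its gene's TPM, Ifi209-201 all of it in replicate 1 and 99.4% in replicate 2, Ifi204-201 97.95% and 96.3%, and Ifi205-201 92.6% and 91.5%. The second quantification gave more to minor models: Ifi209-202, a nonsense-mediated decay model, held 3.77% and 11.2% of Ifi209 there, and Ifi207-202 held 3.26% and 5.80% of Ifi207.

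Aim2, Ifi203 and Mndal were split over several models. For Aim2, the coding model Aim2-204 held 37.3% and 34.6% of TPM, Aim2-205 20.9% and 13.9%, and Aim2-202 9.70% and 10.1%. The non-coding model Aim2-206, only 383 bases long, held 32.1% and 37.1% of TPM from 37 and 100 counts, which is 3.99% and 4.37% of the gene's counts. Without Aim2-206 the level of Aim2 was 23.6 and 41.2 TPM, so the gene's TPM rests in part on few reads over a short model. The model Aim2-203 was at 0 in the transcript table and held 2.31% and 6.37% in the second quantification.

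In Ifi203, the coding model Ifi203-202 led with 43.0% and 36.6% of TPM, followed by Ifi203-205 (23.1% and 15.3%), Ifi203-203 (17.1% and 26.3%) and Ifi203-201 (7.96% and 6.37%). The quantifications disagreed on Ifi203-203, which was at 7.07 and 39.9 TPM in the first and 0.00422 and 11.75 TPM in the second. The processed transcript Ifi203-206 held 3.20% and 5.78%. In Mndal, Mndal-201 held 64.0% and 57.9%, Mndal-202 11.1% and 12.2%, the non-coding Mndal-209 8.70% and 12.1%, and Mndal-208 7.55% and 6.30%. The annotated start of Mndal-201, the model with 77.4% and 74.1% of the gene's counts, lies 1 base from the RefSeq start of Ifi203, so the window shown for Ifi203 is also the one at this start. Exons of Mndal-201 and Ifi203-202 share 6 bases.

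**Figure D4:**
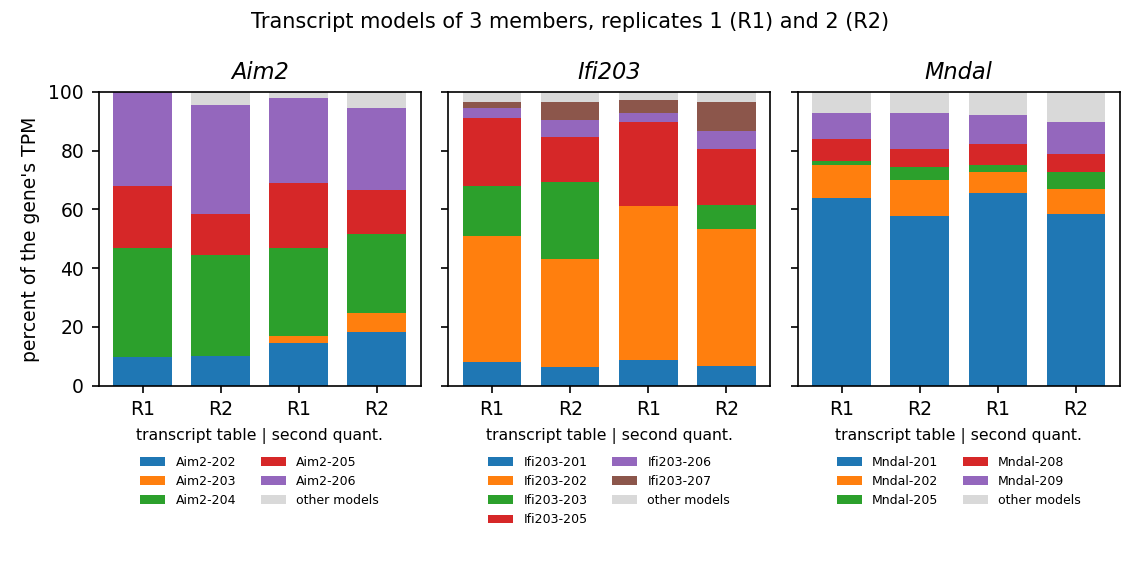
Percent of the gene's TPM held by each transcript model of Aim2, Ifi203 and Mndal, as stacked bars from 0 to 100 for replicates 1 (R1) and 2 (R2) in the transcript table (left pair) and the second quantification (right pair). Mndal-201 holds 57.9% to 65.6% throughout, whereas Ifi203-203 shrinks from 17.1% to 0.012% in replicate 1 between quantifications.

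Retained-intron models, annotated transcripts that keep an intron and code for no full protein, exist for Ifi203 (Ifi203-207), Ifi204 (Ifi204-202), Ifi205 (Ifi205-202) and Mndal (Mndal-203 and Mndal-205). Their share of the gene's counts was 1.54% (95% Wilson interval 1.16% to 2.04%) in replicate 1 and 4.71% (4.39% to 5.05%) in replicate 2 for Ifi203. For Mndal it was 1.58% (1.16% to 2.17%) and 4.35% (3.96% to 4.77%), and for Ifi204 1.42% (1.22% to 1.65%) and 2.58% (2.39% to 2.78%). For Ifi205 it was highest, 15.2% (12.3% to 18.7%) and 17.4% (15.5% to 19.4%), with overlapping intervals. The share was higher in replicate 2 for 4 of 4 members and for 69.4% of the 6016 genes with such a model and at least 100 counts in both libraries, where the median was 0.364% in replicate 1 and 0.899% in replicate 2. In the second quantification it was 3.29% and 7.57% for Ifi203, 2.54% and 6.53% for Mndal, 3.88% and 5.53% for Ifi204 and 21.7% and 27.5% for Ifi205. The direction in the members was therefore that of most genes.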

How the data were processed

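RNA-seq of polyadenylated RNA from 2 libraries of 1 group was used. Per the deposited text files, the assembly was mm10 and the annotation M21, and no source used here gives the quantifiers or their versions. The deposited gene and transcript tables come from a transcriptome alignment and give, per the file headers, expected counts (estimated reads, not normalized) and TPM by the authors. The deposited second transcript tables come from the reads and an index, with estimated counts and TPM per transcript, summed here per gene. The other deposited columns used were the posterior SD of the count and the posterior mean TPM. Rows that name no gene held 0.0891% and 0.0698% of counts and were left out. A count of 0 allows up to 3 counts, 0.0794 and 0.0578 CPM; such limits and all intervals cover counting error only.

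Members were matched by symbol through the second tables and joined by gene identifier. The members and gene lists were chosen with earlier results of these data known. Means and SDs are over 2 libraries. With no residual degrees of freedom for a quasi-likelihood fit, rounded expected counts were compared between libraries by an exact two-sided binomial test per gene, with TMM sizes and filterByExpr (minimum count 10) in edgeR 4.0.16 on R 4.3.3 and Benjamini-Hochberg adjustment at 0.05, tested on simulated data. Ratios of TPM on the log2 scale used a pseudocount of 1. Coding sequences were taken from GENCODE M21 and aligned with Biopython 1.88. Protein sequences were not used here, so coding sequences took the place of the planned protein alignments.

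The text names all members, in each list the 4 genes of highest mean TPM and those below 1 TPM in both libraries (marker lists by summed level), every other PYHIN gene, the 3 genes nearest to the most abundant member and transcripts with 5% or more of a member's TPM in either library and quantification. Exceptions are Pycard, Ifnb1 and Cadm3, and some values under this rule are not reported here. Alternatives were the second quantification, posterior mean TPM, each library alone, other limits, pseudocounts, scalings (total counts, DESeq2 1.42.0 size factors) and no filter.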

Additional observations from a re-analysis of the deposited data

How the results depend on the processing

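Detection of 8 members at 1 TPM or more, and at limits of 0.5 and 5 TPM, was the same in every alternative run. All 8 members were called higher in replicate 2 under scaling by total counts, DESeq2 size factors, no filter on low counts and the second quantification. With a bound of 2-fold in place of the test, 3 members differed and 3 were higher in replicate 2. The median log2 ratio of TPM, 0.93, became 0.82 both with a pseudocount of 5 (0.824) and in TMM-scaled CPM (0.817), and 1.03 in the second quantification. The median share of the leading transcript, 94.6%, became 89.4% in the second quantification. The levels rest on which library is taken: the median member was at 186.3 TPM without replicate 1 and 55.95 TPM without replicate 2, and the family sum at 1433 and 772.5 TPM. Leaving out Aim2-206, an alternative chosen after seeing the data, lowered the mean of Aim2 from 50.1 to 32.4 TPM. The ratio between libraries cannot be computed without either library. No paired analysis was possible because there is 1 group. With 2 libraries, differences between member means closer than their spread cannot be resolved. That spread includes the shift between libraries, so it does not bear on the order within a library, which was not tested.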

Other observations

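The response element core was also looked at outside the family, a comparison chosen after the values were seen. Of 366 tested genes outside the family with the core in a promoter window, 36 (9.84%) were beyond 2-fold higher in replicate 2, against 363 (3.93%) of the 9234 tested genes with a window, which include them. The median log2 ratio of these 366 genes was 0.11, against -0.01 over the 9234. Of the 5 genes outside the family whose core has the gap letters of Ifi203, 0 were beyond 2-fold higher, with a median log2 ratio of 0.54. Of the 12 whose core has the gap letters of Ifi205 and Ifi211, 1 was beyond 2-fold higher, with a median of -0.054. The 8 PYHIN genes with a core had a median log2 ratio of 1.37 and ranged from 0.34 to 2.02. They include Ifi206, Ifi208 and Ifi213, which are outside the member list. The members among them were at 1.75 (Ifi203), 1.47 (Mndal), 0.94 (Ifi205), 0.75 (Ifi211) and 0.34 (Ifi207). Ifi209 and Aim2, whose windows held no core, were at 1.54 and 0.73. Among the cluster genes outside the member list, Ifi206, Ifi208, Ifi213 and Ifi214 held the same core as Ifi203, and Ifi202b, with 1 and 2 counts, held none. Ifi203 and Ifi207, with the largest and the smallest ratio of the 8 members, have the same core letters. Whether the core has a part in the difference between the libraries was not tested.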
